A study of Mus musculus with 18 samples.

Results

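Pancreatic islets that carry 1 inactivated copy of Slc30a8 were compared with wild type islets, both cultured without cytokines. Slc30a8 encodes zinc transporter 8 (ZnT8), which carries zinc into the insulin granules of beta cells, where insulin is stored as zinc-bound crystals. The members were the 3 untreated libraries of genotype ZNT8 +/- (Het) and the 3 untreated libraries of genotype ZNT8 +/+ (WT), 6 of the 18 libraries of the series. They were chosen by genotype and treatment labels, and the 17590 of 55536 genes that passed a low-count filter were tested. The donors were 17-week-old male mice of the strain NOD.CB17-Prkdcscid/NCrCrl, so Het and WT alike carry the scid mutation, which stops the maturation of T and B lymphocytes. Islets rested overnight after isolation and then spent 24 h in plain RPMI 1640 medium before RNA was extracted. ZNT8 -/- (KO) islets in the same medium, and Het and WT islets given TNF-α, IL-1β and IFN-γ for 24 h, served for comparison.

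An islet is a small organ of hormone cells, mostly beta cells that make insulin, with alpha, delta and PP cells beside them and a mesh of capillaries, stroma and macrophages. It lies inside exocrine pancreas, whose acinar cells make digestive enzymes and whose ducts drain them, and isolated islets carry some of that tissue along. Zinc released or held in cells is sensed by the transcription factor Mtf1, which switches on the zinc-binding metallothioneins through a short DNA element in their promoters. The series title concerns a reduced ZnT8 dose, beta cell function and mitochondrial respiration, so these groups of genes are reported beside the others.

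Levels are in CPM, reads of a gene scaled to a common library size after TMM scaling, and differences are log2 fold changes, Het minus WT, ± SE, tested with edgeR (quasi-likelihood) and adjusted by Benjamini and Hochberg's method over all genes tested. The 6 libraries held 24616552 to 29946680 reads assigned to genes, and their log2 CPM correlated with r from 0.9741 to 0.9923. Isolation from 3 mice is stated, but nothing ties each library to its own mouse, so the p-values reflect the scatter of libraries, which may be technical in part. Slc30a8 itself, read first as a check of the labels, stood at 98.8, 123 and 125 CPM in WT and at 126, 95.7 and 111 CPM in Het replicates 1, 2 and 3. The Het and WT libraries overlapped, with an estimate of -0.06 ± 0.19, whereas the KO libraries held 47.9, 55.9 and 44 CPM. Which part of the gene was altered is not stated in the sources at hand, so reads per gene do not count working copies. Islet hormones were high in every library: Ins2, the main insulin gene in mice, ranged from 101030 to 125120 CPM over the 6, Gcg (glucagon) from 10609 to 18337 CPM and Sst (somatostatin) from 4907 to 7029 CPM. Of 19 markers of T, B and NK lymphocytes, 8 had no read in any of the 6 libraries, among them Cd3d, Cd8a and Ms4a1. The others had reads, and 5 passed the low-count filter, namely Lck, Cd79a, Trac, Cd4 and Il2rb. The list together took a mean of 0.000754% of the reads in WT and 0.000738% in Het.

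Het replicate 1 stood apart from the other Het libraries. On the first principal component, with 47.6% of the variance, it scored -41.4, while Het replicates 2 and 3 scored 25.7 and 42.1 and the WT libraries lay between, from -17.1 to -4.55. It was below all 3 WT libraries while both other Het libraries were above them in 1803 genes (10.3%), against 271 genes (1.54%) for replicate 2 and 368 genes (2.09%) for replicate 3 in the same place. The reverse, above WT with both others below, was seen in 1019 genes (5.79%), against 170 (0.966%) and 259 (1.47%). By correlation Het replicate 3 lay farther from the WT libraries than replicate 1 did, on the other side of that component. Its log2 CPM correlated with WT at r from 0.9822 to 0.9854, against 0.987 to 0.9898 for replicate 1. By chi-square per degree of freedom of the counts, replicate 1 was farther from WT replicates 1 and 2 (38.4 and 36.9, against 32.8 and 33.6). Replicate 3 was farther from WT replicate 3 (42.8 against 32.4). Gene groups were therefore also fitted without Het replicate 1, where 1084 of 17924 genes (6.05%) were higher and 1317 (7.35%) lower at an unadjusted p under 0.05.

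Very few single genes separated the genotypes. Only Crct1 passed an adjusted p of 0.05, which is 0.00569% of the genes tested. At an unadjusted p under 0.05 there were 1226 genes (6.97%), 403 with a higher estimate in Het (2.29%) and 823 with a lower one (4.68%). The 3 Het libraries lay wholly above the 3 WT libraries in 609 genes (3.46%) and wholly below in 1273 genes (7.24%). Over all genes the median log2 fold change was 0.00 and the median size 0.10. DESeq2, run on the same counts, called 48 genes, 44 of them lower in Het. Those 44 held 14 acinar and Reg genes, Mt1, Mt2, Nupr1, Hamp and Eif2ak3, which are described in turn.

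Crct1 (ENSMUSG00000027913; GRCm38 chromosome 3, 93014205 to 93015687, minus strand) is a small cysteine-rich protein gene of the epidermal differentiation complex. It stood at 3.91, 2.86 and 2.68 CPM in WT and 1.37, 1.26 and 0.935 CPM in Het. Every Het library was below every WT library, and the gene fell by 1.41 ± 0.18 on the log2 scale (edgeR adjusted p = 0.0206). KO libraries lay lower still, at 0.493, 0.568 and 0.590 CPM. The direction held in every alternative fit and in every fit without 1 library, from -1.52 to -1.22. Among fits without a replicate block the call was lost with only the 6 libraries (edgeR adjusted p = 0.253), in limma (0.0554) and without WT replicate 1 (0.151) or 2 (0.0571) or Het replicate 2 (0.145) or 3 (0.213), in a range of 0.00487 to 0.253 over all fits, and DESeq2 gave the gene no adjusted p.

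Next to it came Olfm4, an olfactomedin secreted by gut and pancreatic epithelium (ENSMUSG00000022026; chromosome 14, 79984081 to 80023139, plus strand). It stood at 7.34, 7.94 and 6.49 CPM in WT and at 13.9, 14.2 and 16.2 CPM in Het. All 3 Het libraries were above all WT libraries and close to one another, Het replicate 1 included, with an estimate of 1.03 ± 0.16 (edgeR adjusted p = 0.0604). The KO libraries, at 12.1, 15.8 and 14.8 CPM, overlapped the Het libraries. limma with sample weights and edgeR without the low-count filter both called Olfm4 (adjusted p = 0.0278 and 0.00482, in a range of 0.00482 to 0.473 over its fits).

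**Figure D1:**
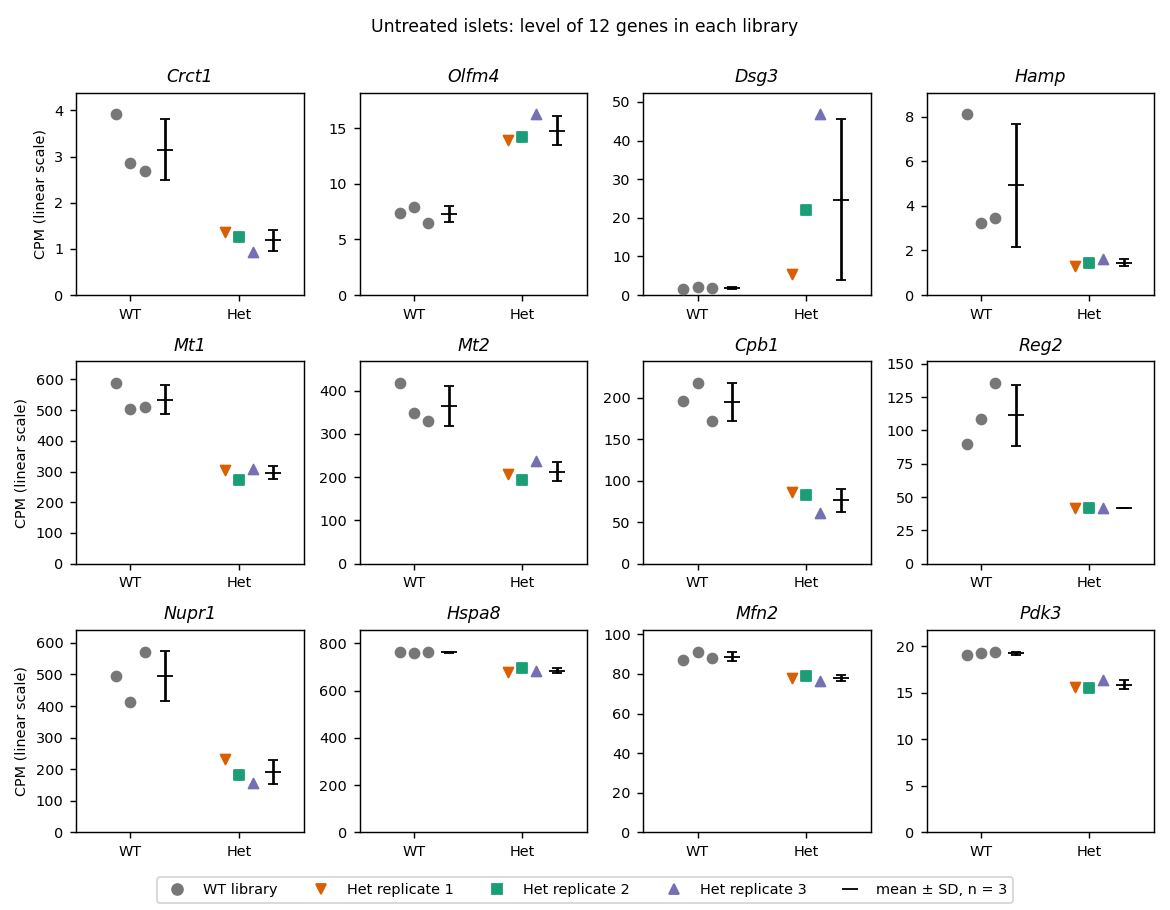
Level in CPM (vertical axis, linear, from 0) of 12 genes in the 3 WT and 3 Het untreated libraries; each symbol is a library and the bar is the mean ± SD, n = 3. Crct1, Hamp, Mt1, Mt2, Cpb1, Reg2, Nupr1, Hspa8, Mfn2 and Pdk3 were lower in every Het library than in any WT library, Olfm4 and Dsg3 higher.

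The higher genes are given by size of estimate among those with non-overlapping groups, an unadjusted p under 0.05 and a mean no lower than 2 CPM. Dsg3, a desmosomal cadherin of squamous epithelium, stood at 1.45, 2.18 and 1.87 CPM in WT and at 5.39, 22 and 46.8 CPM in Het replicates 1 to 3. The groups did not overlap but the Het libraries spanned a wide range, and the estimate of 3.75 ± 0.66 did not pass (edgeR adjusted p = 0.191). Without Het replicate 1 it was 4.23 and passed (edgeR adjusted p = 0.01, in a range of 0.01 to 0.709 over its fits). In KO islets Dsg3 was at 0.265 to 0.820 CPM, below WT. Lgals4, an intestinal galectin, stood at 1.42, 1.79 and 2.16 CPM in WT and at 3.69, 4.09 and 9.32 CPM in Het (1.67 ± 0.32). Pdpn (podoplanin), Calml4, the scramblase Plscr2, Oit1, the organic anion transporter Slco2b1 and the carbonyl reductase Cbr3 followed, with estimates from 1.32 down to 0.68. In all 6, Het replicate 1 was the lowest Het library, as it was for Dsg3 and Lgals4. Slco2b1 was the most even of them, at 2.46, 3.04 and 2.77 CPM in Het against 1.32 to 2.07 CPM in WT.

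The lower genes named by the same rule were mostly acinar and Reg genes. Besides Hamp, they included Reg3d, Try5, Reg3b, Pnliprp1, Reg1, Pnliprp2, Pnlip and Reg2. Hamp encodes hepcidin, the hormone that limits iron release (ENSMUSG00000050440; chromosome 7, 30942368 to 30944032, minus strand). It stood at 8.10, 3.22 and 3.45 CPM in WT and at 1.3, 1.43 and 1.63 CPM in Het (-1.77 ± 0.35, edgeR adjusted p = 0.248), with KO at 0.203 to 0.607 CPM. The lowest WT library held more Hamp than the highest Het library.

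**Figure D2:**
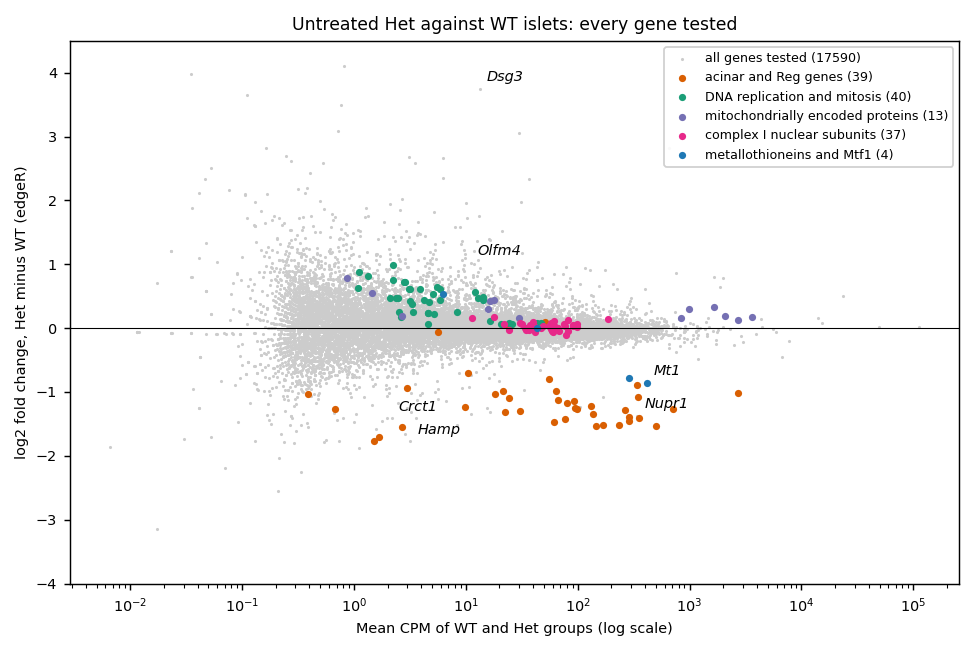
Log2 fold change, Het minus WT (vertical axis), against the mean CPM of both groups (horizontal axis, log scale) for the 17590 genes tested; each point is a gene and the colours mark 5 gene lists. Most acinar and Reg genes lie below 0 at levels across a wide range of CPM, with 2 acinar genes just above 0. DNA replication and mitosis genes lie above 0.

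Acinar genes were lower in Het nearly throughout. Of 36 listed genes, which encode proteases, lipases, amylases and the factors that set acinar identity, 33 were tested and none passed singly. At an unadjusted p under 0.05, 27 were lower and 0 higher, against 4.68% and 2.29% of all genes. In 29 of the 33, every Het library was below every WT library, against 7.24% of all genes. The median of the list was -1.22, beside 0.00 over all genes. The procarboxypeptidase gene Cpb1 (ENSMUSG00000011463; chromosome 3, 20248264 to 20275733, minus strand) stood at 197, 218 and 172 CPM in WT and at 85.8, 83.3 and 60.8 CPM in Het (-1.35 ± 0.28, edgeR adjusted p = 0.248). The related gene Cpa1 (ENSMUSG00000054446; chromosome 6, 30639218 to 30645363, plus strand) stood at 483, 561 and 506 CPM in WT and 223, 226 and 133 CPM in Het (-1.41 ± 0.32). Rnase1, pancreatic ribonuclease, stood at 40.4, 46.1 and 44.1 CPM against 18.7, 21.5 and 12.7 CPM (-1.30 ± 0.27). In these genes the 3 Het libraries lay together and apart from WT, replicate 1 included. Without that replicate 25 of 34 members were lower at an unadjusted p under 0.05, against 7.35% of all genes, and the median was -1.24.

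The acinar list as a whole took 1.01%, 1.01% and 0.977% of the reads in WT and 0.448%, 0.532% and 0.356% in Het. Fewer acinar cells in a preparation and less enzyme mRNA per acinar cell cannot be told apart in bulk RNA. The regulators were not all alike. Ptf1a, which with Rbpjl drives enzyme genes, stood at 1.59, 3.30 and 2.09 CPM in WT and 0.990, 0.664 and 0.381 CPM in Het (-1.76 ± 0.50), and Rbpjl had -1.26 ± 0.60. The nuclear receptor Nr5a2 (-0.06 ± 0.25), the secretory factor Bhlha15 (0.09 ± 0.12) and the creatine synthesis gene Gatm (0.04 ± 0.09) had estimates near 0, and their Het and WT libraries overlapped. These 3, Rbpjl and Ptf1a were singled out after their values were seen. In Het islets with cytokines, which share no library with the untreated ones, the list median was -1.41. In untreated KO islets, which were set against the same WT libraries, it was -2.22.

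Reg genes encode secreted C-type lectins made by acinar cells and by stressed or regrowing islets. All 6 tested had estimates from -1.54 to -1.03 and a median of -1.47. In all 6 every Het library was below every WT library, against 7.24% of all genes. Reg2 stood at 90.2, 109 and 135 CPM in WT and at 41.6, 41.9 and 41.4 CPM in Het (-1.42 ± 0.33). Reg3b stood at 185, 156 and 310 CPM in WT and at 72.6, 76.9 and 76.4 CPM in Het (-1.53 ± 0.45). The Het libraries were close to one another in both genes, and the spread lay among the WT libraries. Acinar markers had estimates of similar size in the same libraries, and their part in the Reg values was not tested.

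E-box motifs spelled CACCTG or CAGCTG, the core that basic helix-loop-helix factors such as Ptf1a bind, were counted on both strands in the 250 bases upstream of RefSeq gene starts (GRCm38.p6). They were present in 17 of 26 windows of 25 tested acinar genes, or 65.4%, and in 27.7% of all 32851 windows. Among the windows without it were those of Cpa1, Pnliprp1, Pnlip, Rnase1 and Ptf1a, all lower in Het. Bhlha15 held 2 and Gatm 1, though their estimates were near 0. The motif TTTCCC was present in 6 of the 26, or 23.1%, and in 21.9% of all windows. In the 6 windows of Reg genes the E boxes and TTTCCC were each present in 4, or 66.7%. These are descriptions of sequence, without a test and without a measurement of binding.

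Metallothioneins Mt1 and Mt2, small cysteine-rich proteins that bind zinc, were lower in every Het library. Mt1 (ENSMUSG00000031765; chromosome 8, 94179082 to 94180327, plus strand) stood at 588, 503 and 509 CPM in WT and at 305, 271 and 310 CPM in Het (-0.85 ± 0.17, edgeR adjusted p = 0.236). Mt2 (ENSMUSG00000031762; chromosome 8, 94172664 to 94173568, plus strand) stood at 418, 349 and 330 CPM in WT and at 206, 194 and 237 CPM in Het (-0.78 ± 0.15, adjusted p = 0.191). The gap between the groups was larger than the range within either group in both genes. Mt3, the form typical of brain, went the other way, at 4.54, 4.69 and 5.94 CPM in WT and 8.77, 6.85 and 6.37 CPM in Het (0.54 ± 0.17, adjusted p = 0.486). Mtf1, the zinc-sensing factor, stood at 42.5 to 44.5 CPM in WT, against 40.9 to 46.5 CPM in Het, with an estimate of 0.00 ± 0.06.

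Because Mt1 and Mt2 were both lower in every Het library, the 250 bases upstream of their RefSeq starts are shown, 5′ to 3′ on the plus strand of GRCm38.p6, with the core of the metal response element in capitals (TGCACNC or TGCGCNC, on either strand). The Mt1 window is chr8:94178839-94179088 and the Mt2 window chr8:94172368-94172617.
Mt1: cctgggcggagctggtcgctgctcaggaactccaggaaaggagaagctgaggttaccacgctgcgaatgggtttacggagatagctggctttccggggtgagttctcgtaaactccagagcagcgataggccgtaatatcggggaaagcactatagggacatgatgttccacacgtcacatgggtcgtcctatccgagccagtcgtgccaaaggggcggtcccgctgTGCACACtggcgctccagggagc
Mt2: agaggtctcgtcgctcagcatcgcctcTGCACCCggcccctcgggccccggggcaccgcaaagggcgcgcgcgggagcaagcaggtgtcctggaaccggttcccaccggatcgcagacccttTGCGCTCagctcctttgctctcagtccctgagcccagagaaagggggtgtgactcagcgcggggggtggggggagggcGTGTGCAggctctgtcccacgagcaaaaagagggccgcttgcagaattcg
The Mt1 window held 1 match and the Mt2 window 3 matches. Elements on either side of these 250 bases were not counted, so the matches do not describe the whole promoters. Among all 32851 windows of this length, 21.4% held at least 1 match and 1.26% at least 3. The windows of Mt3 and Mtf1 held none of these letters.

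Zinc transporters were mostly level. Of the 9 Slc30 exporters tested, 1 was lower and 1 higher at an unadjusted p under 0.05, with a median of -0.02, and of the 13 Slc39 importers likewise 1 and 1, with a median of -0.01. Over all genes 4.68% were lower and 2.29% higher. Slc30a2, a vesicular zinc exporter of acinar and mammary cells, stood at 3.19, 2.42 and 2.93 CPM in WT and at 0.887, 1.68 and 0.658 CPM in Het (-1.41 ± 0.37). Slc39a5, a plasma membrane importer, had -1.44 ± 0.42, from 0.917 to 1.25 CPM in WT against 0.273 to 0.455 CPM in Het. Slc30a5, which loads zinc in the early secretory pathway, stood at 71.3, 68.7 and 70.9 CPM against 81.4, 75.9 and 72.7 CPM (0.13 ± 0.05), and the Golgi importer Slc39a13 had 0.14 ± 0.05. None of these 4 overlapped between the groups, and none passed. Without overlap, 2 of the 9 exporters were lower and 1 higher, and likewise 2 and 1 of the 13 importers. Over all genes 7.24% were lower and 3.46% higher without overlap. Slc30a1, the exporter at the cell surface, stood at 26.5 to 28.5 CPM in WT, against 25.5 to 25.9 CPM in Het (-0.10 ± 0.05). Het replicate 1 differed from the others in Slc39a4, an importer, at 4.88 CPM beside 17.0 and 18.6 CPM, with WT at 5.50 to 6.83 CPM.

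Stress genes were mixed. Nupr1, a stress-induced chromatin protein abundant in exocrine pancreas (ENSMUSG00000030717; chromosome 7, 126623249 to 126630861, minus strand), stood at 495, 414 and 572 CPM in WT and 233, 183 and 158 CPM in Het (-1.37 ± 0.31, edgeR adjusted p = 0.305). Of the 20 genes of the ATF4 and CHOP response, 4 were lower and 0 higher at an unadjusted p under 0.05, against 4.68% and 2.29% of all genes, with a median of -0.02. Without Het replicate 1 there were 5 lower and 1 higher, against 7.35% and 6.05% of all genes, with a median of -0.11. The 4 were Nupr1, Eif2ak3, Atf3 and Ppp1r15a. Eif2ak3, the endoplasmic reticulum stress kinase PERK, stood at 124, 127 and 133 CPM in WT and 106, 109 and 101 CPM in Het (-0.28 ± 0.06). The stress factor Atf3 stood at 12.3 to 14.9 CPM in WT, against 9.61 to 12.1 CPM in Het (-0.38 ± 0.12). The phosphatase subunit Ppp1r15a had -0.24 ± 0.08. In all 4 the groups did not overlap. Over the list of 20, 5 were lower and 0 higher without overlap, against 7.24% and 3.46% of all genes.

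Of the heat shock genes, 18 of 23 had negative estimates. At an unadjusted p under 0.05, 5 were lower and 0 higher, against 4.68% and 2.29% of all genes, and the list median was -0.04. Hspa8, the constitutive cytosolic chaperone, stood at 764, 760 and 763 CPM in WT and 677, 694 and 684 CPM in Het (-0.16 ± 0.05). Hsp90ab1 had -0.13 ± 0.05 and Hsp90aa1 -0.14 ± 0.05. The small heat shock protein gene Hspb1, at 17.4 to 26.9 CPM in WT, against 11.4 to 14.5 CPM in Het, had -0.72 ± 0.25. Of the 23, these 4 were lower without overlap of the groups and 0 were higher, against 7.24% and 3.46% of all genes. Genes of chaperones and degradation in the endoplasmic reticulum had 1 higher and 0 lower of 30, against 2.29% and 4.68% of all genes. Their median was 0.01. Without Het replicate 1 they had 0 higher and 5 lower, against 6.05% and 7.35% of all genes, with a median of -0.05.

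Immediate early genes, which respond to stimulation within an hour, had 5 lower and 1 higher of 31 at an unadjusted p under 0.05, against 4.68% and 2.29% of all genes. The list median was -0.03, and without Het replicate 1 it was 0.13, with 6 lower and 3 higher, against 7.35% and 6.05% of all genes. Klf4 stood at 27.7, 25.7 and 27.2 CPM in WT and 18.8, 20.4 and 20.3 CPM in Het (-0.44 ± 0.10, edgeR adjusted p = 0.252), Jund had -0.16 ± 0.05 and the nuclear receptor Nr4a2 -0.48 ± 0.16. The phosphatase gene Dusp5 was the higher one, at 54.6 to 65.4 CPM in WT, against 66.8 to 77.9 CPM in Het (0.27 ± 0.08). Groups did not overlap in any of these 4. Of the 31, 5 were lower and 1 higher without overlap, against 7.24% and 3.46% of all genes. Among clock genes Npas2 had -0.41 ± 0.12. At an unadjusted p under 0.05, 1 of 19 was lower and 0 higher, against 4.68% and 2.29% of all genes.

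Mitochondrial genes gave small estimates in both directions. All 13 protein genes of the mitochondrial genome had positive estimates, with a median of 0.29, but 0 of 13 had groups that did not overlap, beside 3.46% of all genes. mt-Nd1, a core subunit of respiratory complex I, stood at 1732, 1370 and 1332 CPM in WT and 2283, 1676 and 1623 CPM in Het (0.33 ± 0.14, edgeR adjusted p = 0.662). Het replicate 1 was the highest library and WT replicate 1 lay above both other Het libraries. The 13 genes together took 1.25%, 1.10% and 1.04% of the reads in WT and 1.5%, 1.19% and 1.18% in Het. Without Het replicate 1 the median was 0.16, and mt-Cytb had -0.03. The direction of the list median held in every alternative, from 0.16 to 0.46. The 6 mitochondrial rRNA and tRNA genes tested had a median of 0.28, and 0 had an unadjusted p under 0.05. In 3 of them (mt-Rnr1, mt-Rnr2 and mt-Tw) every Het library was above every WT library, against 3.46% of all genes. In 1, mt-Tp, every Het library was below, against 7.24%.

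Nuclear genes of the respiratory chain were close to level. The median was 0.03 over 37 complex I subunits, 0.03 over 14 subunits of complexes II and III, 0.02 over 15 of complex IV and 0.05 over 17 of ATP synthase. At an unadjusted p under 0.05, 4 of these 83 were higher and 0 lower, against 2.29% and 4.68% of all genes. Without Het replicate 1 the medians were -0.01, 0.03, 0.02 and 0.04, and the 1 higher member was of complexes II and III. In that fit 6.05% of all genes were higher. Sdhd, a membrane anchor of succinate dehydrogenase, stood at 61.6, 58.0 and 61.0 CPM in WT and 67.9, 63.2 and 68.7 CPM in Het (0.15 ± 0.05). The ATP synthase subunit gene Atp5e had 0.22 ± 0.09, the complex I gene Ndufb4 0.18 ± 0.08 and the complex III gene Uqcr11 0.16 ± 0.07, and in these 3 at least 1 WT library overlapped Het. Mitochondrial ribosomal proteins had a median of 0.01 over 77 genes. At an unadjusted p under 0.05, 2 were higher and 0 lower, against 2.29% and 4.68% of all genes. The 2 were Mrpl1 (0.20 ± 0.09) and Mrps18c (0.22 ± 0.10).

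Genes that steer fuel into mitochondria included some of the tightest differences. Pdk3, a kinase that switches off pyruvate dehydrogenase, stood at 19.0, 19.3 and 19.4 CPM in WT and 15.6, 15.5 and 16.4 CPM in Het (-0.28 ± 0.06, edgeR adjusted p = 0.248). The pyruvate carrier gene Mpc2 stood at 30.5, 31.8 and 32.2 CPM in WT and 36.9, 33.8 and 35.3 CPM in Het (0.16 ± 0.06). Mfn2, which fuses outer mitochondrial membranes, stood at 87.0, 91.2 and 88.1 CPM in WT and 78.1, 79.1 and 76.4 CPM in Het (-0.19 ± 0.05, adjusted p = 0.371). In all 3 the groups did not overlap. Of 33 genes of the TCA cycle and pyruvate entry, 5 were lower and 1 higher without overlap. Of 26 genes of mitochondrial dynamics, mitophagy and uncoupling, 2 were lower and 0 higher. Over all genes it was 7.24% and 3.46%. Cpt1a, the gate of fatty acid entry, had -0.25 ± 0.08 and the biogenesis coactivator Ppargc1a, near 1 CPM, -0.89 ± 0.38. The lists of the TCA cycle, fatty acid oxidation and mitochondrial biogenesis had medians of 0.01, -0.02 and -0.01. Glycolysis had a median of -0.20, with 18 of 23 negative. At an unadjusted p under 0.05, 0 were lower, against 4.68% of all genes, and Ldhb was higher (0.40 ± 0.15). The list level was -0.35, -0.22 and 0.09 in Het replicates 1 to 3, and the median was -0.12 without WT replicate 1, and -0.11, -0.09 and -0.37 without Het replicate 1, 2 or 3.

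Beta cell groups had medians near 0 whose sign depended on the library left out. With all libraries the medians were 0.00 for 24 transcription factors, 0.02 for 14 genes of insulin, amylin and prohormone processing, 0.00 for 22 of glucose sensing and excitability, -0.01 for 26 of granule exocytosis and -0.02 for 14 granins and granule cargo. Without Het replicate 1 they were -0.13, -0.06, -0.12, -0.11 and -0.13 in the same order. Without Het replicate 3 they were 0.10, 0.09, 0.06, 0.02 and 0.05, and without Het replicate 2 0.02, 0.06, 0.004, -0.003 and 0.01. At an unadjusted p under 0.05 with all libraries, 2, 1, 0, 1 and 1 members were lower, against 4.68% of all genes. Higher ones numbered 0, 0, 2, 0 and 1, against 2.29%. Without Het replicate 1, 5 of 24, 1 of 14, 6 of 22, 6 of 26 and 4 of 14 were lower at that p. In that fit 7.35% of all genes were lower. Ins1 and Ins2 both had 0.02, with SE 0.11 and 0.12, and their libraries overlapped. Scg3, a granule sorting granin, stood at 3449, 3074 and 3204 CPM in WT and 3019, 2620 and 2751 CPM in Het (-0.21 ± 0.08), and the amidating enzyme gene Pam had -0.26 ± 0.09. Igf1r, a growth factor receptor gene, had -0.24 ± 0.08 and the exocytosis gene Stxbp2 -0.16 ± 0.06. Scg3 and Stxbp2 did not overlap between the groups. In the order above, the lists held 1, 0, 0, 2 and 1 genes lower without overlap, against 7.24% of all genes. Each held 0 higher, against 3.46%.

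Higher estimates among beta cell genes came with wide Het spread. The glucose transporter gene Slc2a2 stood at 93.3, 127 and 119 CPM in WT and at 192, 201 and 91.8 CPM in Het (0.51 ± 0.23). The ion channel gene Trpm5 stood at 8.83, 15.3 and 13.9 CPM in WT and 26.4, 20.1 and 13.2 CPM in Het (0.65 ± 0.26), and the prolactin receptor gene Prlr at 162, 186 and 177 against 304, 199 and 169 CPM (0.36 ± 0.16). In each, Het replicate 1 lay above the WT range and Het replicate 3 inside or just below it. Glucagon and its alpha cell partners had a median of 0.15 over 14 genes, and Het replicate 1 had the highest list level of the 6 libraries. Without it the median was 0.00. Ghrl (ghrelin), under 0.25 CPM in each WT library, stood at 1.06, 0.385 and 0.450 CPM in Het (2.19 ± 0.95, edgeR adjusted p = 0.669).

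Endothelial genes were mixed. Of 22, 2 were lower and 0 higher at an unadjusted p under 0.05, against 4.68% and 2.29% of all genes, with a median of -0.05. Kdr, the main VEGF receptor of islet capillaries, stood at 98.6, 112 and 86.2 CPM in WT and 71.6, 72.8 and 71.6 CPM in Het (-0.46 ± 0.19), and its relative Flt1 had -0.50 ± 0.23, with groups apart in both. KO libraries held less Kdr again, at 42.4 to 53.3 CPM. Of the 22 genes, 3 were lower and 1 higher in Het without overlap, against 7.24% and 3.46% of all genes. Endothelial markers summed took 0.0653% to 0.0869% of the reads in WT and 0.0558% to 0.0775% in Het, ranges that overlap.

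**Figure D3:**
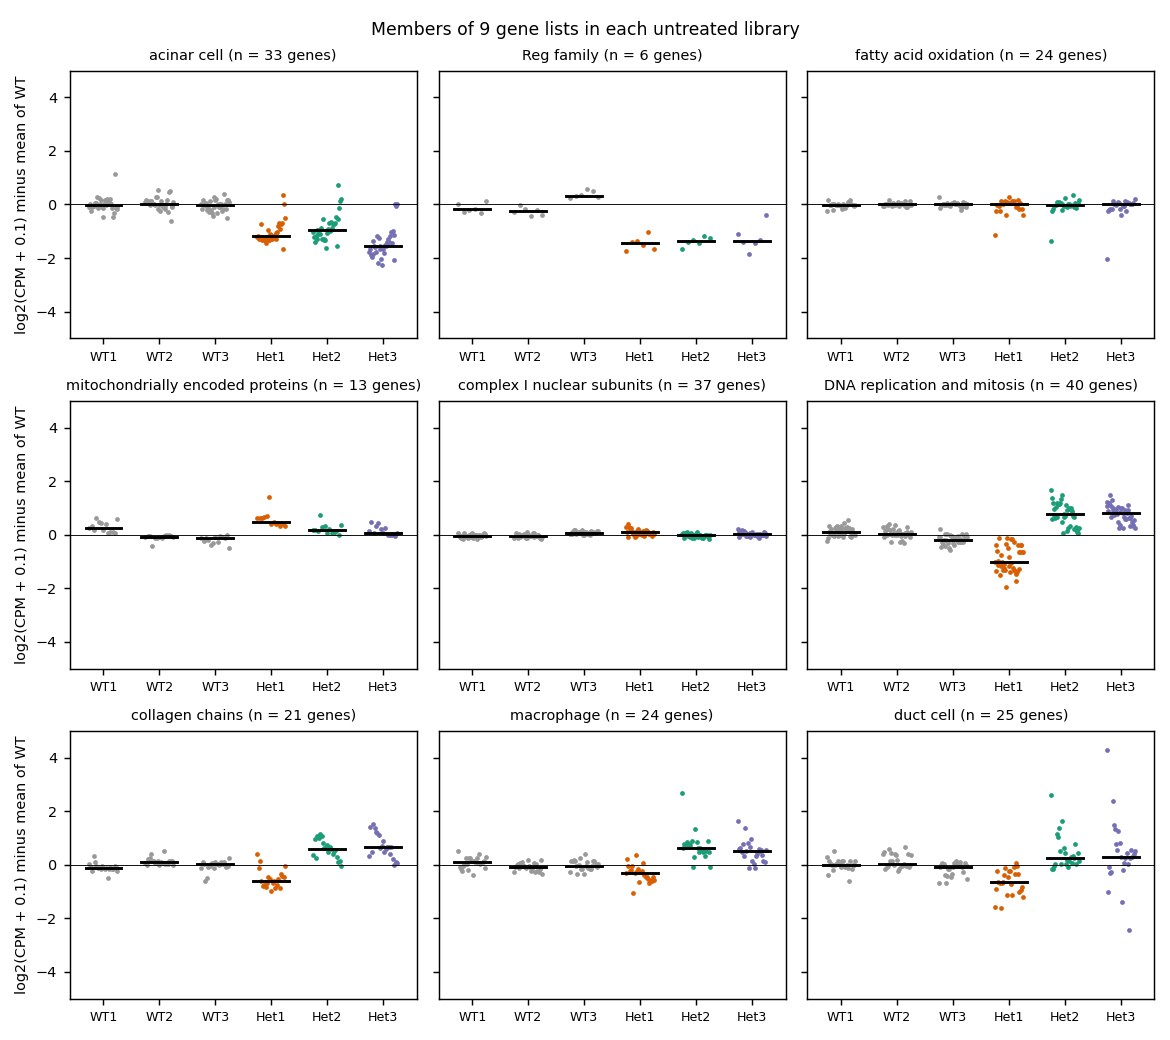
Log2(CPM + 0.1) of each member minus its mean in WT (vertical axis) in the 3 WT (grey) and 3 Het (coloured) untreated libraries, for 9 gene lists; each point is a gene and the bar is the median. Most acinar and Reg members are low in all 3 Het libraries. Most DNA replication, collagen, macrophage and duct members are low in Het replicate 1 and high in replicates 2 and 3.

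In a large share of the gene groups the Het libraries disagreed with one another. The level of a list, the mean log2 CPM of its members less that of WT, was on one side of the WT mean in Het replicate 1 and on the other in replicates 2 and 3 for 30 of 57 lists, and replicate 1 was the lower one in 20 of these. DNA replication and mitosis genes were the extreme case. All 40 had positive estimates, with a median of 0.44, yet 0 of 40 had an unadjusted p under 0.05, beside 2.29% of all genes. The list level was -0.93 in Het replicate 1 and 0.76 and 0.78 in replicates 2 and 3, with WT from -0.18 to 0.12. Without replicate 1, 32 of the 40 were higher at an unadjusted p under 0.05, beside 6.05% of all genes, and the median was 0.84. Without replicate 2 or 3 the median was 0.16 or 0.15.

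Single genes showed the same split. Mki67, the proliferation marker, named here after its values were seen, stood at 14.2, 12 and 9.65 CPM in WT and 4.64, 23.4 and 22.2 CPM in Het (0.48 ± 0.50). The replicative helicase gene Mcm5 stood at 12.8, 11.9 and 11.4 CPM in WT and 9.08, 18 and 22.2 CPM in Het (0.44 ± 0.28), and the mitotic ubiquitin ligase gene Ube2c at 1.25, 1.83 and 1.39 against 0.683, 4.93 and 3.22 CPM (0.98 ± 0.52). In each gene Het replicate 1 was the lowest of the 6 libraries and the other Het libraries were the highest.

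Collagen, macrophage, duct and complement genes had the same split. The level of 21 collagen chains was -0.51 in Het replicate 1 and 0.60 and 0.71 in replicates 2 and 3. That of 24 macrophage genes was -0.32, 0.72 and 0.53, that of 25 duct genes -0.65, 0.47 and 0.41, and that of 16 complement genes -0.55, 0.47 and 0.71. Neutrophil genes (-0.90, -0.60 and 0.78), endothelial genes (-0.28, -0.02 and 0.20) and Schwann and neural genes (0.16, -0.02 and 0.36) were ordered otherwise. Pdgfra, a receptor of fibroblasts and stellate cells, stood at 12.3 to 22.8 CPM in WT and 12.6, 39.5 and 51.2 CPM in Het (0.95 ± 0.63), and the gelatinase gene Mmp2 at 39.8 to 68.8 CPM in WT and 32.7, 131 and 145 CPM in Het (0.96 ± 0.65). The duct gene Car2, carbonic anhydrase 2, stood at 3.74 to 8.10 CPM in WT and at 1.98, 37.6 and 121 CPM in Het (3.05 ± 1.17, edgeR adjusted p = 0.613). Complement C3 stood at 70.2 to 101 CPM in WT and at 62.0, 214 and 234 CPM in Het (0.91 ± 0.47). Collagen reads were 0.198%, 0.461% and 0.498% of the Het libraries and 0.293% to 0.334% of WT, and macrophage reads 0.0211%, 0.0440% and 0.0445% against 0.0265% to 0.0317%. These marker levels were low in Het replicate 1 and high in replicates 2 and 3, as the proliferation genes were, and their part in those values was not tested.

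In a few genes of these groups the Het libraries lay on one side of all WT libraries. Above WT were 1 of 21 collagen chains and 2 of 24 macrophage genes, against 3.46% of all genes. Below WT were 1 of 21 metalloproteinase and inhibitor genes and 1 of 16 complement genes, against 7.24%. Of 25 duct genes there were 0. Col27a1, a fibrillar collagen, stood at 59.9, 61.2 and 54.6 CPM in WT and 76.8, 75.3 and 74.4 CPM in Het (0.37 ± 0.13), and the macrophage complement gene C1qa at 19.8, 19.6 and 22.9 against 23.9, 31.7 and 31.6 CPM (0.49 ± 0.25). The membrane metalloproteinase gene Mmp15 stood at 33.5, 29.3 and 36.7 against 19.7, 26.5 and 25.2 CPM (-0.48 ± 0.18), and the complement protease relative C1rl had -0.35 ± 0.11. C1qa in Het replicate 1 was close to the highest WT library, and none of the 4 passed.

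**Figure D4:**
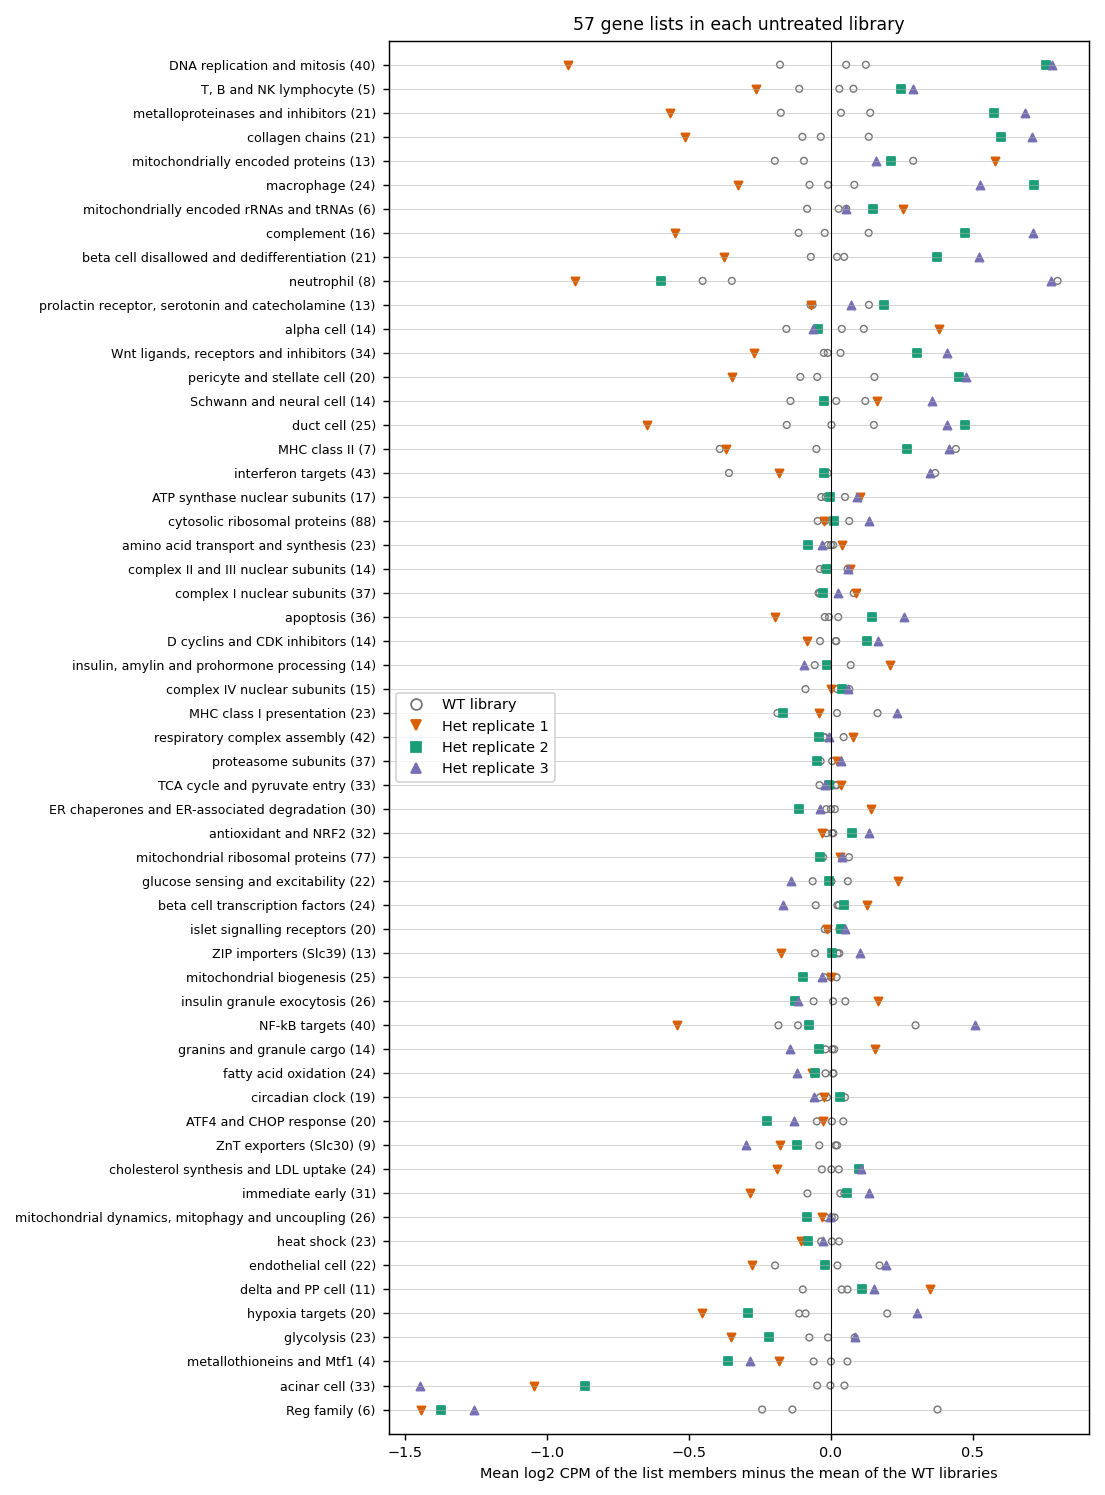
Mean log2 CPM of the members of 57 gene lists (number of genes in brackets) minus the mean of the WT libraries (horizontal axis), in each untreated library, in order of the median fold change; open circles are WT and filled symbols Het replicates 1 to 3. In 5 lists all 3 Het libraries are below the WT range (acinar, Reg, metallothioneins, zinc exporters and fatty acid oxidation) and in 1 list above it (delta and PP cell, whose median fold change is -0.06). Zinc exporters and fatty acid oxidation each have a median fold change of -0.02, and their lowest members are at -1.41 and -1.51.

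Immune signalling genes had medians near 0. Of 40 NF-kB targets 3 were lower and 0 higher at an unadjusted p under 0.05 (median -0.02), of 43 interferon targets 1 and 0 (0.06), of 23 genes of MHC class I presentation 0 and 0 (0.02) and of 36 apoptosis genes 0 and 1 (0.03). Over all genes 4.68% were lower and 2.29% higher. Without Het replicate 1 the NF-kB targets had 1 lower and 4 higher and a median of 0.24, and the apoptosis genes 0 lower and 7 higher and a median of 0.08. In that fit 7.35% of all genes were lower and 6.05% higher. The NF-kB list level was -0.54, -0.08 and 0.51 in Het replicates 1 to 3, with WT from -0.18 to 0.30. Nfkbiz, an inducible NF-kB cofactor, stood at 57.7, 47.5 and 56.9 CPM in WT and 39.2, 40.1 and 51.8 CPM in Het (-0.31 ± 0.09), and Birc3, an apoptosis inhibitor, had -0.39 ± 0.17. The calprotectin gene S100a8, a neutrophil marker, stood at 9.11, 1.75 and 1.80 CPM in WT and at 0.785, 1.19 and 3.43 CPM in Het. Its estimate of -1.25 rested on WT replicate 1 and was 0.02 without it.

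The same genotypes were also compared after cytokines, where edgeR called 0 genes between Het and WT, with 1237 (7.03%) at an unadjusted p under 0.05, 533 higher and 704 lower. The test of the difference between the 2 treatments called 0 genes, with 842 (4.79%) at an unadjusted p under 0.05, and 0 in DESeq2 and limma. Of the 823 genes lower in untreated Het, 551 (67.0%) also had a negative estimate with cytokines, beside 52.9% of all genes with a negative untreated estimate. Of the 403 higher ones, 222 (55.1%) were positive in both, beside 49.7%. The labels do not say whether treated and untreated islets came from the same mice.

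Side by side, Crct1 had -1.41 untreated and -0.89 with cytokines, and Dsg3 3.75 and 2.57. Cpb1 had -1.35 and -1.49, Nupr1 -1.37 and -1.21, and Mt1 -0.85 and -0.41. Olfm4 (1.03 and 0.15), Lgals4 (1.67 and -0.23), Pdk3 (-0.28 and 0.10) and Mfn2 (-0.19 and 0.08) were near 0 or of the other sign with cytokines. The interaction did not pass for any of them (edgeR adjusted p from 0.881 to 0.954 for these 9).

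KO islets were compared with the same WT libraries, so the values are given only side by side. The acinar median was -1.22 in Het and -2.22 in KO, Mt1 had -0.85 and -1.09, Mt2 -0.78 and -1.13, Mt3 0.54 and 1.06, and Hamp -1.77 and -3.60. Klf4 had -0.44 and -0.74, Eif2ak3 -0.28 and -0.38, Kdr -0.46 and -1.09, and Pdk3 -0.28 and -0.31. Mfn2 (-0.19 and -0.12) and Scg3 (-0.21 and -0.04) were nearer to 0 in KO than in Het, and Dsg3 (3.75 and -1.64) had the other sign.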

How the data were processed

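RNA of islets was measured in 18 libraries, 6 of which form the comparison. The values are raw read counts per gene, as deposited by the authors in a table of 55536 genes; the build GRCm38 and the tools STAR 2.5.2a, featureCounts 1.6.2, cutadapt 1.16, FastQC 0.11.7 and DESeq2 1.30.0 are named without roles, per the submitters' processing notes. Strandedness is not stated there, so overlapping and near-identical genes are less certain.

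DESeq2 1.42.0, limma 3.58.1 and edgeR 4.0.16 ran under R 4.3.3. From the counts, edgeR gave CPM after TMM scaling, and a robust quasi-likelihood fit of 6 group means to all 18 libraries (12 residual degrees of freedom, median biological coefficient of variation 0.106), after filterByExpr with a count minimum of 10. The adjusted p threshold was 0.05. List levels used log2 CPM with a prior count of 2. The fit was tested on simulated data. No 2 libraries of a group agreed within counting noise (lowest chi-square per degree of freedom 7.59).

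Named genes are Slc30a8, genes that passed, up to 10 higher and 10 lower of largest estimate with an unadjusted p under 0.05, non-overlapping groups and a mean CPM no lower than 2, up to 4 members per list of smallest p, and hormone, metallothionein, carboxypeptidase and mitochondrial genes; a few of these are left out of the text. The members and the 57 lists were chosen with earlier results of these data known. Alternatives were other scaling, filters and tools, only the libraries compared, replicate blocks and leaving out each library; the block by the number in the deposited table of conditions and the fit without robust weighting were added after seeing the data. Promoter sequences are from RefSeq. Figures used matplotlib 3.10.9.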

Additional observations from a re-analysis of the deposited data

Results flagged for a closer look

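In 1 of the genes described here every Het library was below WT when untreated and above WT with cytokines. Gbp10, a guanylate-binding protein gene induced by interferon, stood at 0.381, 0.278 and 0.147 CPM in WT and 0.137, 0.105 and 0.0346 CPM in Het when untreated (-1.50 ± 0.47), and at 1.86, 1.33 and 1.45 CPM in WT and 2.05, 2.15 and 3.00 CPM in Het with cytokines (0.63). The interaction did not pass (edgeR adjusted p = 0.881). No untreated library was above 0.381 CPM, near the floor, so the untreated difference rested on few reads. The low-count filter was applied over all 18 libraries, which include those with cytokines, where the gene stood higher.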

How the results depend on the processing

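Of the count of genes called, 1 in the fit reported, the alternatives gave 2 without the low-count filter, 0 with only the 6 libraries compared and 48 with DESeq2; limma gave 1, which was Olfm4 and not Crct1. DESeq2 gave Crct1 and Olfm4 no adjusted p. Leaving out 1 library gave 0 to 2 calls: 0 without WT replicate 1 or 2 or Het replicate 2 or 3, 1 without WT replicate 3 and 2 (Crct1 and Dsg3) without Het replicate 1. Genes at an unadjusted p under 0.05, 1226 in the fit reported, numbered 705 with the 6 libraries, 2768 in limma and 2401 without Het replicate 1. The count of genes whose Het to WT difference varied with cytokines was 0 in every alternative run. The replicate number as a block gave 0 calls by the number in the labels, in the titles or in the deposited table of conditions, where Crct1 had an adjusted p of 0.0804, 0.143 and 0.0778 (edgeR). The deviations of same-numbered Het and WT libraries correlated in 1 of 3 pairs (r = -0.115, 0.428 and -0.364 by the labels), so the numbers were not taken to pair the libraries.

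Most named genes kept their sign; estimates near 0 did not. Mtf1 was 0.0083 with RLE factors, 0.013 without the filter, 0.011 with the 6 libraries and 0.0083 in DESeq2. In limma Ins2 was -0.0062, Nr5a2 0.094 and Bhlha15 -0.052, and Slc30a8 was 0.029 with the title number as a block. Without 1 library the ranges were -0.16 to 0.036 for Slc30a8, -0.054 to 0.040 for Mtf1, -0.038 to 0.081 for Ins1, -0.060 to 0.095 for Ins2, -0.020 to 0.28 for Gcg, -0.21 to 0.069 for Sst, -2.12 to 0.020 for S100a8, -0.035 to 0.57 for mt-Nd4l, -0.026 to 0.21 for mt-Cytb, -0.22 to 0.12 for Nr5a2, -0.063 to 0.19 for Bhlha15 and -0.014 to 0.13 for Gatm. List medians moved by more than 1 SD of the list level in 27 of their refits and by less in 885; the causes were not tested.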

Other observations

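Of 88 cytosolic ribosomal protein genes, 65 had positive estimates, with a median of 0.04, and 4 were higher and 0 lower at an unadjusted p under 0.05, against 2.29% and 4.68% of all genes. The list level was -0.02, 0.01 and 0.14 in Het replicates 1 to 3 and -0.05 to 0.07 in WT, and the median was -0.01 without Het replicate 3, 0.08 without Het replicate 1 and 0.02 without WT replicate 1. Rplp0 stood at 748, 750 and 786 CPM in WT and 768, 829 and 925 CPM in Het (0.14 ± 0.06), and Rpl9 at 348, 344 and 361 against 361, 372 and 415 CPM (0.12 ± 0.05). Of 24 genes of cholesterol synthesis and uptake 1 was higher (Cyp51, 0.20 ± 0.08) and 1 lower (Fdps, -0.27 ± 0.11). Over all genes 2.29% were higher and 4.68% lower, and the list median was -0.02. Without Het replicate 1 there were 6 higher and 1 lower, against 6.05% and 7.35% of all genes, and a median of 0.08. Of 34 Wnt pathway genes 26 had positive estimates (median 0.13), and Wnt7b stood at 3.43, 4.49 and 4.11 CPM in WT and at 2.83, 10.9 and 22.5 CPM in Het replicates 1 to 3 (1.59 ± 0.72). The glial genes S100b and Gfap had 0.66 ± 0.29 and 0.84 ± 0.39, with overlapping groups.

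Genes within 5 Mb of Slc30a8 on chromosome 15 were listed after the data were seen. Of 25 tested, 1 had an unadjusted p under 0.05 in Het, against 6.97% of all genes. It was the syntrophin gene Sntb1, at 2.81, 3.5 and 2.57 CPM in WT and 2.39, 1.64 and 2.08 CPM in Het (-0.53 ± 0.17). In KO islets, set against the same WT libraries, edgeR called 3 of the 25, Slc30a8, Sntb1 (-0.81) and Mal2.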
